A study of Homo sapiens with 8 samples.

Results

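The replication-dependent histone genes were taken as all genes whose older symbol begins with HIST1H to HIST4H, or whose current symbol is of the forms H1-1 to H1-6, H2AC, H2BC, H3C and H4C. Of 94 genes with such symbols, 68 had a probe on the array, and 64 had a probe well above background on all 4 input arrays. These 64 genes, of 13665 genes measured in the same way, comprise 5 genes of the linker histone H1, 16 of H2A, 16 of H2B, 13 of H3 and 14 of H4. H1-6, H2BC1, H2AC2P and H2BP1 had a probe that did not reach this level and are not described further. Their transcripts were followed in A431 cells, a human cutaneous squamous cell carcinoma line, after transfection with 10 nM of a negative-control miRNA (miR-NC) or of miR-634 and lysis 24 h later. RNA recovered on beads carrying an antibody to AGO2 (RIP) and total RNA of the cells (input) were each hybridized to 1-colour arrays. Each kind of RNA from each kind of cells was on 2 arrays, which gives 4 groups. The labels name normal rabbit IgG for the input arrays, while the study's methods describe input as total RNA.

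These genes encode the bulk of the histones that package newly copied DNA, and most of them lie side by side in clusters. They are transcribed in S phase, contain no introns, and give mRNAs that normally end in a stem-loop bound by SLBP in place of a poly(A) tail. AGO2 is the protein of the RNA-induced silencing complex that holds a miRNA and through it the mRNAs the miRNA pairs with, so enrichment in the RIP relative to input measures how much of a transcript came down with AGO2. The guide given to the cells is shown because the RIP compares AGO2 with and without an excess of it. In its RefSeq sequence, with the seed (bases 2 to 8) in capitals, it is encoded at chr17:66787132-66787153 of GRCh38.p14 on the + strand:
hsa-miR-634: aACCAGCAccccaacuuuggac

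Levels below are log2 intensities of a gene's probe, set to a common 75th percentile of the array, and they compare arrays for the same probe only. Enrichment is log2 RIP minus log2 input. The change of enrichment is enrichment in miR-634 cells minus enrichment in miR-NC cells. Each was tested with limma across all 13665 genes, with p-values adjusted after Benjamini and Hochberg and called under 0.05. Nothing in the labels says that the 2 arrays of a group came from separate cultures, so the p-values measure only the spread between these arrays. Of 58201 probes, 43.4% to 43.6% were well above background on the input arrays, 30.9% and 31.8% on those of the miR-NC RIP and 37.5% on those of the miR-634 RIP. All 4 input arrays lay in 1 row of the slide and all RIP arrays in another, so that slide row and the RIP step cannot be told apart. The 8 squamous carcinoma markers (KRT5, KRT14, KRT6A, KRT17, SFN, TP63, EGFR and CDH1) were well above background on all input arrays. Of 10 markers of fibroblasts, endothelium and leukocytes, LUM, VWF and CDH5 were measured. APIP and XIAP, targets of miR-634 used as controls, had changes of enrichment of 3.17 (adjusted p = 1.14e-05) and 0.45 (adjusted p = 0.00207).

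One array differed from its partner in the histone genes. In miR-634 input, 61 of the 64 genes read lower on replicate 1 than on replicate 2, against 6560 of all 13665 genes, and the median SD of the histone genes was 0.14 in this group against 0.02 in miR-NC input. The median input change of the 64 genes was -0.14 with both arrays, -0.25 without replicate 2 and -0.04 without replicate 1. The median change of enrichment was -0.82 with both, -0.71 without replicate 2 and -0.92 without replicate 1.

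In miR-NC cells, the histone genes were spread around the level of enrichment of the other transcripts, and in miR-634 cells most of them lay well below it. The median enrichment of the 64 genes in miR-NC cells was -0.26, and that of all genes was -0.20. In miR-NC cells, 7 histone genes were enriched (27.5% of all genes were called higher) and 31 were depleted (42.9% of all genes). In miR-634 cells, the median was -1.07 against -0.23 for all genes, with 5 genes enriched (31.5% of all genes) and 55 depleted (45.9% of all genes). The 5 enriched genes were all H3 genes.

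The change of enrichment had a median of -0.82 in the histone genes and of -0.18 in all genes. It was called lower in 52 of the 64 (34.6% of all genes were called lower) and higher in 5 (24.9% of all genes). The values ran from -3.998 for H3C1 to 1.91 for H3C3. One of the calls, H2AC1, had no measured level in miR-NC RIP and so no measured direction. Among the 61 genes whose probe was well above background on at least 1 array of each RIP group, 52 were called lower and 4 higher, all 4 of them H3 genes, with a median of -0.83. Over the 11612 genes of all kinds that met this condition, 38.9% were called lower and 26.3% higher. The size and sign of this shift depend on how the arrays are brought to a common scale. Scaling on the 7 spike-in probes in place of the 75th percentile added 1.08 to the change of enrichment of every gene, so that the median of the histone genes turned to 0.25 and that of all genes to 0.90, with 13 of the 64 histone genes called higher (60.2% of all genes) and 3 lower (1.39% of all genes). It also shifted every enrichment by -2.53 in miR-NC cells and by -1.45 in miR-634 cells. The distance to the median gene was -0.65 under both scalings, and 54 of the 64 histone genes lay below the median gene. It also depends on which genes make up the comparison: with no filter on dim probes, the median of all 22439 genes was -0.48 and the distance -0.35 over 68 histone genes. Directions given below hold for the 75th percentile scaling, and distances to the median gene hold for both.

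**Figure D1:**
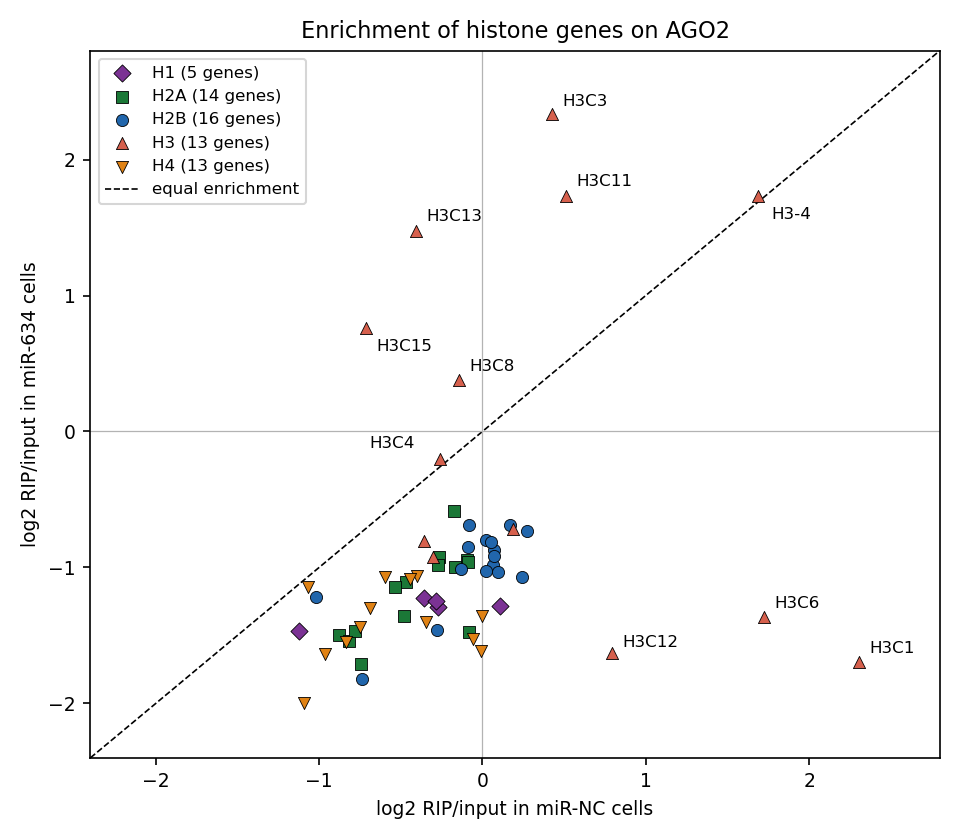
Enrichment (log2 RIP/input, mean of 2 RIP arrays minus mean of 2 input arrays) of the 61 histone genes measured in both RIP groups, in miR-NC cells (x axis) and miR-634 cells (y axis), by family. Most genes of H1, H2A, H2B and H4 form a compact cloud below the dashed line of equal enrichment, with medians of -1.29, -1.13, -0.95 and -1.38 in miR-634 cells over all measured genes of each family, while the H3 genes lie on both sides of the line. Spike-in scaling shifts every point by -2.53 along the x axis and -1.45 along the y axis.

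Over these 61 genes, the enrichments of the miR-NC and the miR-634 cells correlated with Pearson's r = 0.30 and Spearman's rho = 0.42. Without the H3 genes, r was 0.63 and rho 0.62 over 48 genes. These values are across genes, which share the arrays and their scaling and are not replicates. Outside H3, 46 of the 48 genes measured in both RIP groups were called lower in the change of enrichment, against 38.9% of the 11612 genes of all kinds. Called higher were 0, against 26.3% (also 0 at an unadjusted p under 0.05 in limma, against 27.6%). The median of the 48 genes was -0.86, at a distance of -0.69 to the median gene.

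The linker histones, which bind the DNA between nucleosomes, moved together. The 5 H1 genes all had a lower enrichment in miR-634 cells (median change -0.96, against 0.12 under spike-in scaling), and all lay below the median gene. All 5 were called lower, against 34.6% of all genes. H1-2 read 13.23 and 13.20 in miR-NC input, 12.04 and 12.15 in miR-NC RIP, 12.91 and 13.02 in miR-634 input, and 11.52 and 11.47 in miR-634 RIP. It was depleted from the RIP in both kinds of cells, by -1.12 and -1.47, and its change of -0.35 ± 0.09 (SE; adjusted p = 0.0187) was the smallest of the family. This call was lost relative to the median gene (-0.17) and when either miR-NC input array, miR-634 input replicate 2 or miR-634 RIP replicate 2 was left out (-0.29 to -0.36). H1-3 gave 12.71 and 12.69 in miR-NC input, 12.34 and 12.35 in miR-NC RIP, 12.45 and 12.55 in miR-634 input, and 11.28 and 11.27 in miR-634 RIP. Here the groups did not overlap, and the change was -0.87 ± 0.07 (adjusted p = 0.000241).

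H1-1 was the H1 gene called lower in the input, by -0.46 (adjusted p = 0.0138), a call lost when any 1 of the 4 input arrays was left out. The input changes of H1-2 (-0.25, adjusted p = 0.0545) and H1-3 (-0.20, adjusted p = 0.0553) were called lower when genes had to be well above background on all 8 arrays (adjusted p = 0.0294 and 0.0315), and the genes were not tested against each other. The level of H1-1 was 11.69 on both miR-NC input arrays, 11.88 and 11.71 in miR-NC RIP, 11.24 and 11.21 in miR-634 input, and 9.97 and 9.91 in miR-634 RIP. The miR-634 arrays of both kinds lay below all miR-NC arrays. Its enrichment was 0.11 in miR-NC cells (adjusted p = 0.197) and -1.29 in miR-634 cells, so that the change was -1.40 ± 0.10 (adjusted p = 0.000134). H1-4 and H1-5 changed by -1.02 and -0.96.

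Among the genes of H2A, a core histone that pairs with H2B in the nucleosome, all 14 measured in both RIP groups had a lower enrichment in miR-634 cells, with a median change of -0.72. All 14 were called lower, against 38.9% of the 11612 genes. Over all 16 genes the median was -0.70 (0.38 under spike-in scaling). In miR-NC cells 9 of the 14 (64.3%) were already depleted from the RIP, against 43.4% of the 11612 genes of all kinds measured in both RIP groups. H2AC14 and H2AC15 had the brightest probes of the family in the input. On the arrays in turn, H2AC14 read 14.51 and 14.49 in miR-NC input, 14.38 and 14.44 in miR-NC RIP, 14.28 and 14.41 in miR-634 input, and 13.41 and 13.40 in miR-634 RIP. For H2AC15 the levels were 14.30 and 14.24, 14.17 and 14.20, 14.01 and 14.24, and 13.19 and 13.14 in the same order. In both genes the miR-634 RIP arrays stood below all others, and the changes of -0.85 ± 0.08 and -0.87 ± 0.12 had adjusted p = 0.000461 and 0.00166. H2AC16 read 10.05 and 10.10 in miR-NC input, 9.38 and 9.27 in miR-NC RIP, 10.03 and 10.20 in miR-634 input, and 8.49 and 8.32 in miR-634 RIP. It was depleted in both kinds of cells, by -0.75 and -1.71, and changed by -0.97 ± 0.13 (adjusted p = 0.00159).

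H2AC1 and H2AC25 were near background in the RIP. H2AC1, a gene known from testis, read 4.80 and 4.51 in miR-NC input, 3.32 and 4.18 in miR-NC RIP, 4.15 and 4.43 in miR-634 input, and 5.07 and 4.48 in miR-634 RIP. It was not well above background on either miR-NC RIP array. Its change, called higher at 1.39 ± 0.48 (adjusted p = 0.0493), therefore has only a bound on 1 side. That bound in miR-NC RIP (5.33) lay above its mean in miR-634 RIP (4.77), so that no direction was measured and no fold is given. The call was lost without any 1 of 6 arrays (all but miR-NC RIP replicate 2 and miR-634 RIP replicate 2), with values of 0.96 to 1.53. H2AC25 read 6.42 and 6.65 in miR-NC input, 3.82 and 4.90 in miR-NC RIP, 6.01 and 6.09 in miR-634 input, and 4.74 and 4.27 in miR-634 RIP. It was well above background on neither miR-NC RIP array and on 1 miR-634 RIP array. In miR-NC cells it was at least 2.30-fold lower in RIP than in input (adjusted p = 0.00268), and its change of enrichment was not called (0.62 ± 0.51, adjusted p = 0.341).

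The H2B genes had a median enrichment of 0.04 in miR-NC cells and an SD of 0.34 between genes. In these cells 1 gene was enriched (27.5% of all genes), H2BC15 (0.27, adjusted p = 0.0401), and 3 were depleted (42.9% of all genes). In miR-634 cells all 16 were depleted by the probe used (45.9% of all genes), with a median of -0.95. The change was called lower in 15 of 16, against 34.6% of all genes. Its median was -0.97, against 0.11 under spike-in scaling, and all 16 lay below the median gene. H2BC13 read 12.84 and 12.80 in miR-NC input, 12.84 and 12.94 in miR-NC RIP, 12.57 and 12.80 in miR-634 input, and 11.84 and 11.79 in miR-634 RIP. H2BC9 gave 12.50 on both miR-NC input arrays, 12.52 and 12.63 in miR-NC RIP, 12.26 and 12.39 in miR-634 input, and 11.42 and 11.40 in miR-634 RIP. In both, RIP and input were level in miR-NC cells and apart in miR-634 cells, with changes of -0.95 ± 0.13 (adjusted p = 0.0015) and -0.99 ± 0.09 (adjusted p = 0.00034).

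H2BC7 had the largest fall of the H2B genes. Its levels were 9.60 and 9.70 in miR-NC input, 9.84 and 9.94 in miR-NC RIP, 9.58 and 9.94 in miR-634 input, and 8.63 and 8.75 in miR-634 RIP, a change of -1.31 ± 0.18 (adjusted p = 0.00163). H2BC26, of the small HIST3 cluster, read 8.43 and 8.54 in miR-NC input, 7.49 and 8.00 in miR-NC RIP, 8.07 and 8.25 in miR-634 input, and 6.39 and 6.29 in miR-634 RIP. It was depleted in miR-NC cells (-0.74) and more so in miR-634 cells (-1.82), with a change of -1.08 ± 0.25 (adjusted p = 0.012). The exception was H2BC21, well above background on 1 miR-NC RIP array, with a change of -0.20 ± 0.50 (adjusted p = 0.755).

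**Figure D2:**
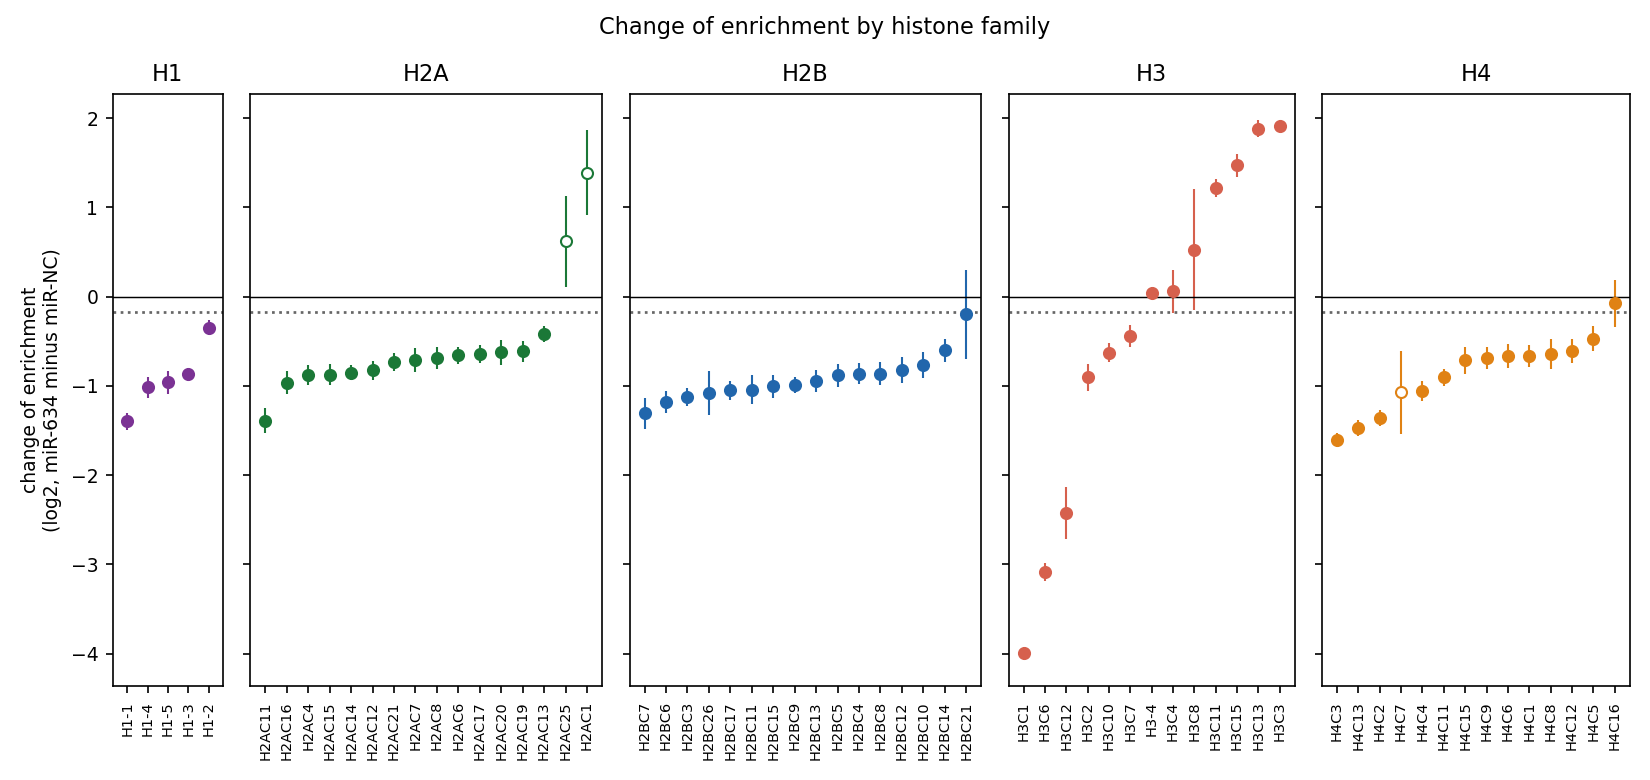
Change of enrichment (log2, miR-634 minus miR-NC) of each of the 64 histone genes, sorted within its family, with the standard error of the limma fit as bars and 2 arrays in each of the 4 groups. The dotted line marks the median of all 13665 genes (-0.18), and open points are the 3 genes not well above background in a whole RIP group. H1, H2A, H2B and H4 lie mostly below the dotted line and H3 spans -3.998 to 1.91; under spike-in scaling all points and the dotted line move up by 1.08, which turns the medians of H1, H2A, H2B and H4 positive.

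H4 forms the nucleosome core with H3, and most of its genes encode the same protein. Of 13 H4 genes measured in both RIP groups, 12 (92.3%) had a lower enrichment in miR-634 cells, against 38.9% of the 11612 genes of all kinds. None of the 13 had a positive value. The median change over all 14 was -0.70 (0.38 under spike-in scaling). H4C3 had the brightest probe of the family and read 16.93 and 16.90 in miR-NC input, 16.93 and 16.89 in miR-NC RIP, 16.62 and 16.72 in miR-634 input, and 15.09 and 15.02 in miR-634 RIP. H4C13 read 15 and 14.96, 14.90 and 14.94, 14.66 and 14.74, and 13.23 and 13.11 in the same order. The enrichments of both genes in miR-NC cells, -0.01 and -0.06, were not called, and the miR-634 RIP arrays stood below all others. The changes were -1.60 ± 0.08 for H4C3 (3.04-fold lower, adjusted p = 3.67e-05) and -1.47 ± 0.09 for H4C13 (2.77-fold lower, adjusted p = 8.1e-05).

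H4C11 was the most depleted histone gene in miR-634 cells. It read 11.88 and 11.86 in miR-NC input, 10.80 and 10.76 in miR-NC RIP, 11.58 and 11.70 in miR-634 input, and 9.71 and 9.57 in miR-634 RIP. Its enrichments were -1.09 with miR-NC and -1.999 with miR-634, a change of -0.91 ± 0.10 (adjusted p = 0.000663). H4C16, which lies apart from the other clusters, read 6.90 and 6.65 in miR-NC input, 5.83 and 5.58 in miR-NC RIP, 6.54 and 6.74 in miR-634 input, and 5.72 and 5.27 in miR-634 RIP. It was depleted in both kinds of cells, by -1.07 and -1.14, and its change was -0.07 ± 0.26 (adjusted p = 0.83). H4C7 was not well above background on any RIP array and was not called (adjusted p = 0.0962).

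H3 was the family whose members went in different directions. Of 13 H3 genes, 4 gained enrichment with miR-634 (30.8%, against 24.9% of all genes), 6 lost it (46.2%, against 34.6% of all genes) and 3 were not called. The SD of the change among the H3 genes was 1.88, against 0.26 among the H2B genes and 0.31 among all 48 genes outside H3 measured in both RIP groups. H3C1 read 12.29 and 12.25 in miR-NC input, 14.62 and 14.53 in miR-NC RIP, 12.47 on both miR-634 input arrays, and 10.79 and 10.76 in miR-634 RIP. H3C6 read 12.54 and 12.46, 14.25 and 14.21, 12.48 and 12.67, and 11.23 and 11.19 in the same order. Both were well above input in miR-NC RIP and well below it in miR-634 RIP. H3C1 had the highest enrichment of all 64 genes in miR-NC cells, 2.30, but -1.69 in miR-634 cells, a change of -3.998 ± 0.07 (15.98-fold lower, adjusted p = 6.13e-06). For H3C6 it was 1.73 and -1.36, a change of -3.09 ± 0.11 (8.50-fold lower, adjusted p = 1.4e-05).

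H3C12 went the same way with a wider spread. It read 11.07 and 10.91 in miR-NC input, 11.87 and 11.69 in miR-NC RIP, 10.90 and 11.05 in miR-634 input, and 9.65 and 9.04 in miR-634 RIP, so that the groups of RIP arrays did not overlap. Its change was -2.42 ± 0.29 (5.36-fold lower, adjusted p = 0.000996). H3C1, H3C6 and H3C12 were the 3 histone genes whose change was still called lower under spike-in scaling. H3C2, H3C10 and H3C7 changed by -0.90, -0.63 and -0.44, in the range of the other families. The call of H3C7 was lost relative to the median gene (-0.27) and without any 1 of 5 arrays (both miR-NC input arrays, both miR-NC RIP arrays and miR-634 RIP replicate 2), with values of -0.41 to -0.47.

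H3C3, H3C13, H3C15 and H3C11 went the other way. H3C3 read 13.43 and 13.44 in miR-NC input, 13.84 and 13.88 in miR-NC RIP, 13.33 and 13.40 in miR-634 input, and 15.70 on both miR-634 RIP arrays. Its enrichment rose from 0.43 in miR-NC cells to 2.33 in miR-634 cells, a change of 1.91 ± 0.07 (3.75-fold higher, adjusted p = 1.46e-05). H3C11, with an enrichment of 0.51 in miR-NC cells, read 10.29 and 10.24 in miR-NC input, 10.82 and 10.74 in miR-NC RIP, 10.02 and 10.19 in miR-634 input, and 11.83 and 11.84 in miR-634 RIP, a change of 1.22 ± 0.10 (2.32-fold higher, adjusted p = 0.00024). In both genes the miR-634 RIP arrays lay above all other arrays.

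H3C13 and H3C15 belong to the HIST2 cluster and passed from depletion to enrichment. H3C13 read 14.62 and 14.63 in miR-NC input, 14.18 and 14.26 in miR-NC RIP, 14.36 and 14.52 in miR-634 input, and 15.94 and 15.88 in miR-634 RIP. Its enrichments were -0.41 with miR-NC and 1.47 with miR-634, a change of 1.88 ± 0.10 (3.68-fold higher, adjusted p = 4.47e-05). H3C15 read 14.50 and 14.51 in miR-NC input, 13.80 and 13.78 in miR-NC RIP, 14.16 and 14.42 in miR-634 input, and 15.01 and 15.09 in miR-634 RIP. Enrichment was -0.71 and 0.76, a change of 1.47 ± 0.13 (2.78-fold higher, adjusted p = 0.000321). The other 5 measured HIST2 genes (H2AC19, H2AC20, H2AC21, H2BC21 and H4C15) were depleted in both kinds of cells.

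H3-4, H3C4 and H3C8 were not called. H3-4, of the HIST3 cluster, read 14.90 and 14.92 in miR-NC input, 16.59 and 16.61 in miR-NC RIP, 14.95 and 14.93 in miR-634 input, and 16.66 and 16.70 in miR-634 RIP. It was enriched in both kinds of cells, by 1.69 and 1.73, and the change was 0.04 ± 0.06 (adjusted p = 0.559); relative to the median gene it was called higher (0.22). The miR-634 RIP arrays of H3C8 read 13.66 and 12.18 and did not give 1 level, with an SD of 1.04, the widest of the 64 genes in any group. Its change was 0.52 ± 0.68 (adjusted p = 0.539), and it was called higher without miR-634 RIP replicate 2 (1.26). For H3C4 the change was 0.06 ± 0.24 (adjusted p = 0.846).

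**Figure D3:**
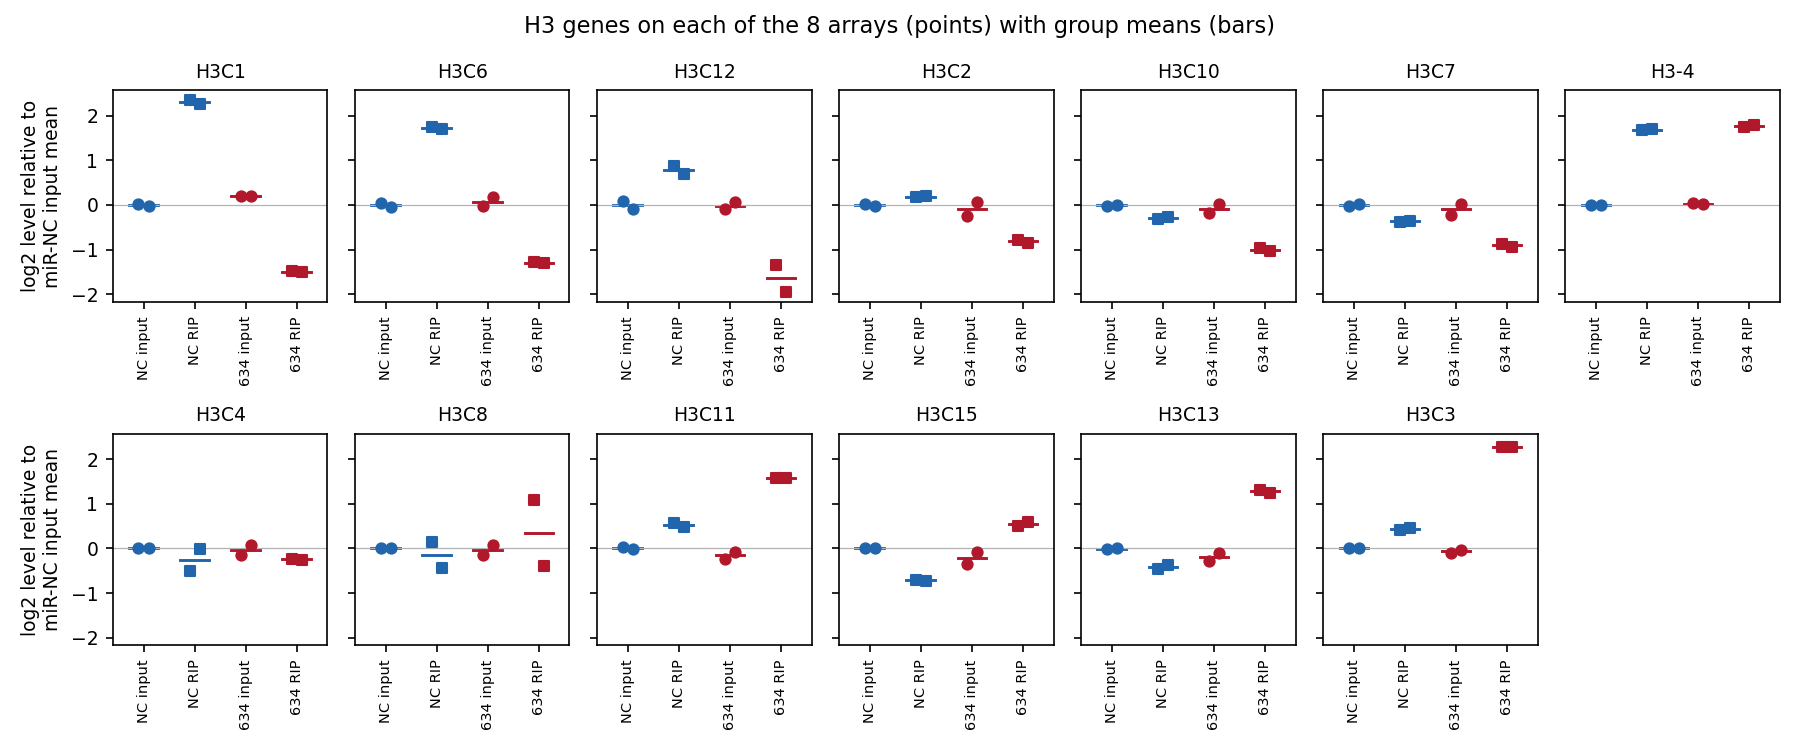
Levels of the 13 H3 genes on each of the 8 arrays, as log2 level minus the gene's mean in miR-NC input (y axis), by group (x axis); circles are input, squares RIP, blue miR-NC, red miR-634, and bars group means of 2 arrays. The input arrays stay close to 0 for all 13 genes, while miR-634 RIP minus miR-NC RIP is -3.80 in H3C1 and 1.84 in H3C3 (spike-in scaling adds 0.86 to each).

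The H3 genes encode proteins of nearly the same sequence, and the mRNAs of one family share long stretches of coding sequence, so that a probe can take signal from another copy. Probe sequences were not used here, and how far these probes read a single gene was not tested. Where a gene had 2 probes, they can be set side by side. Of 9 histone genes with 2 probes, 8 had both well above background on all input arrays, and 6 of these gave the same sign of the change with both. In H2AC6, the probe used gave -0.66 and the other, dimmer one 1.34, and in H2BC12 the probes gave -0.82 and 0.38. Enrichment in miR-634 cells was -0.92 and 0.25 with these probes of H2AC6, and -0.80 and 1.16 with those of H2BC12. In miR-NC cells it was -0.26 and -1.09 for H2AC6, and 0.02 and 0.78 for H2BC12.

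The RIP arrays taken alone give the numerator of the change of enrichment, so that they are not a separate test of it. The RIP change of the 64 genes (miR-634 RIP minus miR-NC RIP) had a median of -0.92 against -0.15 for all genes, with 53 genes lower (39.4% of all genes were called lower) and 5 higher (28% of all genes). Without H2AC1, H2AC25 and H4C7, which were not well above background in a whole RIP group, 52 of 61 were lower and 4 higher, against 43.2% and 29.1% of the 11612 genes measured in both RIP groups. Both miR-634 RIP arrays read below both miR-NC RIP arrays in 52 of these 61 genes, or 85.2%, against 50.4% of the 11612. Under spike-in scaling the median RIP change of the 64 genes was -0.06 and that of all genes 0.71, with 10 histone genes called lower (3.26% of all genes) and 10 higher (62% of all genes).

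In the input, by contrast, the range of the 64 genes was -0.48 to 0.20. The median input change was -0.14 against -0.01 for all genes, with 4 genes called lower (7.57% of all genes were called lower) and 0 higher by limma (6.59% of all genes), and at an unadjusted p under 0.05 the counts were 14 lower (15.5% of all genes) and 1 higher (14.3% of all genes). Both miR-634 input arrays read below both miR-NC input arrays in 35 genes, or 54.7%, against 35.4% of all genes. The 4 genes were H1-1 (-0.46, adjusted p = 0.0138), H4C13 (-0.28, adjusted p = 0.0407), H2AC13 (-0.27, adjusted p = 0.0459) and H4C3 (-0.25, adjusted p = 0.0397). No histone gene was called when any 1 of the 4 input arrays was left out, 1 was called when a miR-NC RIP array and 3 when a miR-634 RIP array was left out, and 8 of 60 (13.3%) were called lower when genes had to be well above background on all 8 arrays, against 12.1% of all genes that met this condition. In RNA of whole cultures, fewer cells in S phase and less histone mRNA per cell cannot be told apart.

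**Figure D4:**
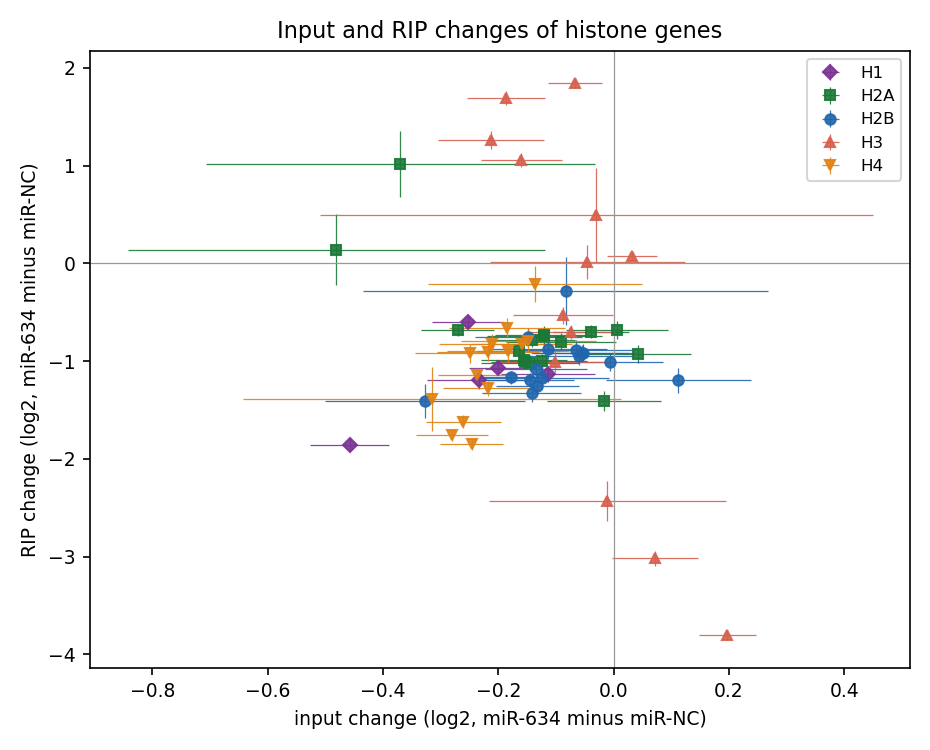
Input change (x axis) and RIP change (y axis), both log2 miR-634 minus miR-NC, of the 64 histone genes with standard errors of the limma fit, by family. The input changes stay between -0.48 and 0.20, while the RIP changes run from -3.80 to 1.84; under spike-in scaling every RIP change shifts by 0.86 and every input change by -0.22.

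H2A and H2B genes often stand back to back, transcribed away from a shared stretch of DNA, and the pairs can be compared. Of the measured genes, 10 H2A and H2B pairs had starts at most 500 bases apart on opposite strands in the RefSeq table of GRCh38.p14. The H2A gene was the less enriched of the pair in miR-NC cells in 9 of 10, with medians of -0.27 for H2A and 0.06 for H2B. In miR-634 cells it was the less enriched in 7 of 10. In 9 of the pairs both genes were measured in both RIP groups (all but H2AC25 and H2BC26), and the H2A gene had the less negative change of enrichment in 6 of these 9, with medians of -0.69 for H2A and -0.95 for H2B. The widest gap among them was in H2AC7 and H2BC7, at -0.71 and -1.31. The order was the reverse in H2AC11 and H2BC11 (-1.39 and -1.04), H2AC14 and H2BC14 (-0.85 and -0.60), and H2AC20 and H2BC21 (-0.62 and -0.20). These are descriptions of pairs with no test.

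Promoters were compared between the families as a description, and a link of their letters to the RIP levels was not tested. RefSeq gave 59 of the 64 genes a promoter window of 300 bases, from 250 before to 50 after the start, and 3 motifs were searched on both strands. The CCAAT box (CCAAT) was found in 84.7% of these windows and in 35.7% of all 27305 windows of the same length, the TATA box (TATAAA) in 67.8% and 12%, and the octamer (ATTTGCAT) in 40.7% and 1.8%. The octamer stood in 11 of 15 H2A and 12 of 16 H2B windows, in 1 of 11 H3 windows and in no H1 or H4 window. Windows of all 10 back-to-back pairs overlap, so that 1 octamer can count for both genes of a pair. The 250 bases before the start are shown for an H2B gene with the octamer and for the H3 genes with the lowest and the highest change of enrichment, with the motifs in capitals on either strand (chr6:26251364-26251613, chr6:26020201-26020450 and chr6:26045134-26045383, all + strand of GRCh38.p14):
H2BC9: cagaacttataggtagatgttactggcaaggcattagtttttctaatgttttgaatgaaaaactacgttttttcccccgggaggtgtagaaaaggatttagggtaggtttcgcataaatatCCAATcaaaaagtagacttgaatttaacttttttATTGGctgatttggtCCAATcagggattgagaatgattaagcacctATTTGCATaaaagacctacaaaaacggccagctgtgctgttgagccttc
H3C1: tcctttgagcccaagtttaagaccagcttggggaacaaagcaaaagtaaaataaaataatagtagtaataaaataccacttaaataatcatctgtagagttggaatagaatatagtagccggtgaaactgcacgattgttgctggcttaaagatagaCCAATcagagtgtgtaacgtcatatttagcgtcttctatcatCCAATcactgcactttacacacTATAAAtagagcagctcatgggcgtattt
H3C3: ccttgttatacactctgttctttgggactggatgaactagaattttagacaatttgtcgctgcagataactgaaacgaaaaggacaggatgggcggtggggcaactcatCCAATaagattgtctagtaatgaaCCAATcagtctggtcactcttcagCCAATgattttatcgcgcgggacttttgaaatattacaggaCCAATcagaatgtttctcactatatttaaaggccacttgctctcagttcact

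The H2BC9 stretch holds 3 CCAAT boxes and 1 octamer, that of H3C1 2 CCAAT boxes and 1 TATA box, and that of H3C3 4 CCAAT boxes. The input changes were 0.20 for H3C1 (adjusted p = 0.0543) and -0.07 for H3C3, neither called, while the RIP levels of these H3 genes went opposite ways. That of H3C1 was called higher when genes had to be well above background on all 8 arrays (adjusted p = 0.031), by median scaling, by quantile normalization with and without normexp, by centring and with an intensity trend, and it was -0.02 under spike-in scaling. A match is a description of letters, not of a bound factor.

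The factors that make and remove these mRNAs were not a uniform group. Of 27 genes for transcription, end processing, translation and decay of histone mRNA, 25 were measured, and the change of enrichment was higher in 7 and lower in 14, or 28% and 56%, with a median of -0.63 (0.45 under spike-in scaling). Over all genes, to be set beside this list and the following ones, the shares were 24.9% higher and 34.6% lower and the median -0.18. ZNF473, among the 7, was not well above background in miR-NC RIP. SLBP, which binds the stem-loop, changed by -0.63 (adjusted p = 0.00151) with an input change of 0.01. HINFP, a transcription factor of H4 genes, changed by -2.07 (adjusted p = 8.05e-05), and NPAT, the coactivator of the clusters, was not well above background on any RIP array and was not called (adjusted p = 0.118). LSM10, a part of the U7 particle that cuts the end of histone mRNA, changed by 1.61 (adjusted p = 1.6e-05), and UPF1, which takes part in their decay, by 1.82 (adjusted p = 0.000452). In the input, 4 of the 25 (16%) were called higher, against 6.59% of all genes, and 1 lower (7.57% of all genes), POU2F1 (-0.60, adjusted p = 0.00589), which binds the octamer.

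Genes listed as replication-independent histones, whose mRNAs mostly carry a poly(A) tail, also split. Of 12, 10 were measured, with 3 higher (30%), 5 lower (50%) and a median change of -0.16 (0.92 under spike-in scaling). H3-3A changed by -3.08 (adjusted p = 6.13e-06) and H3-5 by 2.26 (adjusted p = 8.31e-06). H2AZ1 changed by 1.20 (adjusted p = 0.000114) and H2AX by -0.38 (adjusted p = 0.00594), and H1-10 had a value of 0.02 (adjusted p = 0.873). H3-3B was not measured, and how far the probes of H3-3A and H3-5 read a single gene was not tested.

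Among 22 histone chaperones, all measured, 4 were higher (18.2%) and 12 lower (54.5%), with a median of -0.42 (0.66 under spike-in scaling). SUPT16H, among the 4, was not well above background in miR-NC RIP. NASP, which carries H3 and H4, changed by 3.07 (adjusted p = 2.93e-05) with an input change of -1.33 (adjusted p = 0.00263), and HAT1, which acetylates new H4, by 2.30 (adjusted p = 7.37e-06). Of 19 S phase genes, all measured, 8 were higher and 8 lower (42.1% each), with a median of -0.13 (0.94 under spike-in scaling). In the input, the median change of these 19 genes was 0.01, with 12 positive and 7 negative values. Limma called 2 lower (10.5%, against 7.57% of all genes) and 0 higher (6.59% of all genes). RRM2, a subunit of the enzyme that makes deoxynucleotides, had an input change of -0.57 (adjusted p = 0.0461), and PCNA had an input change of -0.24 (adjusted p = 0.245).

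**Figure D5:**
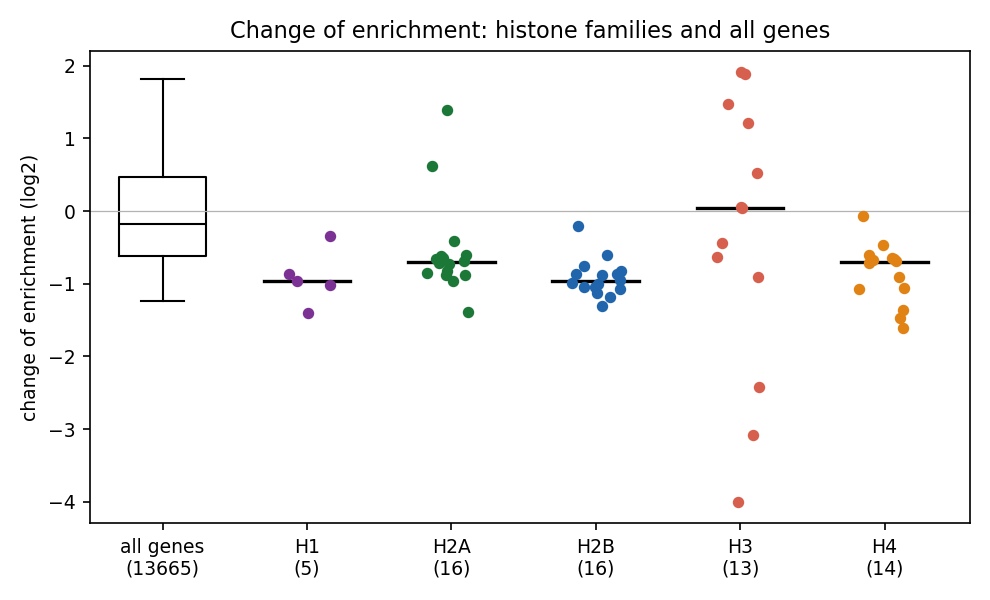
Change of enrichment (log2, miR-634 minus miR-NC) of all 13665 genes (box from the lower to the upper quartile, whiskers from the 5th to the 95th percentile, line at the median) and of each histone gene by family (points, with the family median as a bar). The medians of H1 (-0.96), H2A (-0.70), H2B (-0.97) and H4 (-0.70) lie below that of all genes (-0.18) and that of H3 (0.04) above it; spike-in scaling moves all values up by 1.08, which turns the H1, H2A, H2B and H4 medians positive and leaves the distances.

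The amplification kit named in the labels starts from the poly(A) tail, which these mRNAs mostly lack; the share of tailed histone transcripts that the arrays read, and whether it differed between RIP and input, was not tested.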

How the data were processed

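A431 RNA was hybridized to 8 arrays of 1 slide. The authors deposited, for each array, the spot intensity read by Agilent Feature Extraction (9.1 per the labels, 12.0.1.1 per the file headers), background-subtracted and not normalized between arrays, and a table of GeneSpring log2 values. These deposited log2 values matched log2 intensity minus the 75th percentile over all probes, centred per probe, and served as an alternative.

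Control and outlier spots were left out and no spot was saturated. Log2 intensities were shifted by the array's 75th percentile over the 16810 probes well above background on all 8 arrays. RefSeq accessions named 31104 of 58201 probes through the GRCh38.p14 gene table. Each gene had its brightest probe among those well above background on the 4 input arrays. Groups came from sample titles. limma 3.58.1 in R 4.3.3 (lmFit on 4 group means, eBayes) gave 5 contrasts. A probe not well above background in a whole group was given as a bound from the lowest signal well above background. On simulated data the change of enrichment recovered 61.5% of 200 genes changed by 1 log2 among 13665. Far more genes were called in the real data (3399 higher and 4733 lower), so that this share need not hold for the calls above.

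Array values are given for the 2 brightest genes of each family in the input and the 3 highest and 3 lowest in enrichment, its change and the input change. The members, lists and rules were chosen with earlier results of these data known. Alternatives covered filters, scaling, background correction (normexp on median signals), probe choice, centring, variance trend, a replicate block and leaving out each array. The replicate numbers did not pair the arrays (correlations of deviations -0.04 to 0.05). The number of arrays limits the precision. Some genes of the lists are not reported here by name.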

Additional observations from a re-analysis of the deposited data

Results flagged for a closer look

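The change of enrichment is itself the test of whether enrichment differed between miR-634 and miR-NC cells (limma, 2 arrays in each of 4 groups). It was called, with levels measured in both RIP groups, in 20 of the genes given array by array. These genes were picked in part by this change and by the enrichments that form it, so that their number is no separate support. Over all genes, the change of enrichment was called higher in 24.9% and lower in 34.6%. All values are log2 on the 75th percentile scale. It was negative for H1-1 (-1.40), H1-2 (-0.35), H1-3 (-0.87), H2AC14 (-0.85), H2AC15 (-0.87), H2AC16 (-0.97), H2BC13 (-0.95), H2BC26 (-1.08), H2BC7 (-1.31), H2BC9 (-0.99), H4C11 (-0.91), H4C13 (-1.47) and H4C3 (-1.60), and for the H3 genes H3C1 (-3.998), H3C6 (-3.09) and H3C12 (-2.42). It was positive for the H3 genes H3C3 (1.91), H3C13 (1.88), H3C15 (1.47) and H3C11 (1.22). Of the 64 histone genes, H2AC1 was also called, with only a bound in miR-NC RIP.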

How the results depend on the processing

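Of the histone genes given above, H3C1, H3C6, H3C12, H3C3, H3C13, H3C15 and H3C11 kept the direction and the call of their change of enrichment under every alternative run, each array left out included. Scaling on spike-in probes reversed the median change of enrichment of the 64 genes (0.25) and of H1 (0.12), H2A (0.38), H2B (0.11) and H4 (0.38), and the changes of H1-2 (0.73), H1-3 (0.21), H2AC14 (0.23), H2AC15 (0.21), H2AC16 (0.11), H2BC13 (0.13), H2BC9 (0.092), H3C10 (0.45), H3C2 (0.18), H3C7 (0.64), H4C11 (0.17) and H4C16 (1.01). It reversed enrichment in miR-NC cells for H1-1 (-2.42), H2BC13 (-2.46), H2BC7 (-2.29), H2BC9 (-2.46), H3-4 (-0.84), H3C1 (-0.23), H3C11 (-2.02), H3C12 (-1.74), H3C2 (-2.34), H3C3 (-2.10) and H3C6 (-0.80), in miR-634 cells for H2AC1 (-0.97), H3C15 (-0.69) and H3C8 (-1.07), and the RIP change for H1-2 (0.26), H3C10 (0.16), H3C7 (0.33) and H4C16 (0.65). The reversals follow from the constant that this scaling adds to all genes, and so does that of the enrichment of H4C3 in miR-NC cells after centring on the median gene (0.19), which adds 0.20 to every gene. The RIP change of H4C16 also reversed with normexp and quantile normalization (0.22), and the cause was not tested.

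With spike-in scaling, 0 genes were enriched (0.424% of all genes) and 63 depleted (98.1% of all genes) in miR-NC cells (median -2.79). In miR-634 cells 1 was enriched (5.1% of all genes), and the median of the histone genes was -2.52. The change was higher in 13 (60.2% of all genes) and lower in 3 (1.39% of all genes). In the input 0 were lower (2.8% of all genes), with a median of -0.36. The RIP change was higher in 10 (62% of all genes) and lower in 10 (3.26% of all genes), with a median of -0.058. Centring on the median gene gave 19 enriched (35.3% of all genes) and 20 depleted (33.6% of all genes) in miR-NC cells (median -0.067). The medians were then -0.84 in miR-634 cells, -0.65 for the change and -0.77 for the RIP change. With no filter on dim probes the miR-NC median was -0.17, and 8 genes were enriched in miR-634 cells (40.4% of all genes). The distance of the change to the median gene was then -0.35 in place of -0.65. The miR-634 median was -0.96 with the percentile over all probes and with the authors' values, -0.98 with median scaling and -0.97 with normexp and quantile normalization, and the RIP median -0.74, -0.74 and -0.83 with the first, the second and the last of these. Genes called higher in the input numbered 1 with the filter on all 8 arrays, median scaling, quantile normalization, normexp and quantile normalization, centring and an intensity trend. Of all genes, 6.81% to 11.6% were called higher in these runs. Genes called lower in the input numbered 8 with the filter on all 8 arrays (13.3%, against 12.1% of all genes) and 9 with an intensity trend (14.1%, against 10.2%). They numbered 2 with quantile normalization (6.48% of all genes) and with the mean of a gene's probes (6.64%). There was 1 with no filter (2.55% of all genes), the percentile over all probes (3.18%), the authors' values (3.2%) and the replicate block (5.53%). The block changed no other count of calls by more than 1.5 times, and it was not used because the replicate numbers did not pair the arrays.

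With each array left out in turn, where a lone array was assumed to vary like the other groups, the change was higher in 4 to 6 genes and lower in 48 to 52 (median -0.92 to -0.71). Enrichment in miR-NC cells was called higher in 5 to 9 and lower in 21 to 32 (median -0.28 to -0.23), and in miR-634 cells in 5 to 6 and 54 to 55 (median -1.20 to -0.94). The input was lower in 0 to 3 and higher in 0 (median -0.25 to -0.037), and the RIP change was higher in 4 to 6 and lower in 52 to 54 (median -0.96 to -0.89).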
